A study of Mus musculus with 6 samples.

Results

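The 6 genes described here, Bcl6, Tox, Tox2, Pou2af1, Ascl2 and Maf, encode transcription regulators of follicular helper T cells. They were chosen by name, with earlier results of these data known, so shares of all tested genes beside their counts are description only. Their members were all 17 probe sets that the array's annotation assigns to exactly 1 of these symbols. The array holds 45037 probe sets that are not controls. Of the 17, 13 reached the intensity floor used for testing and 4 did not, namely all 3 of Ascl2 and 1 of 6 of Maf, so 5 of the 6 genes were tested. The 13 had means above the floor of 37.8 in both genotypes.

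Donor T cells came from RAG2-/- mice of the CD45.1 type that carry the transgenic 5C.C7 receptor, which recognises a moth cytochrome c (MCC) peptide. They were either wild type (3 arrays) or CTLA-4-/- (CTLA-4 KO, called the knockout here, 3 arrays), so every donor cell, the controls included, lacked RAG2 and bore 1 transgenic receptor. The cells were moved into B10.A mice, whose own lymphocytes remain, and the recipients received MCC peptide with LPS before sorting on day 4. The gate of the sort, the ages of the mice and the number of animals per array are not given in the sources used here. The titles number the 3 arrays of each genotype as biological replicates, without saying whether an array stands for 1 mouse or several. Xist, the RNA of the inactive X chromosome, was high on the arrays numbered 2 and low on the rest, so those of a genotype did not all share 1 source of RNA. A p-value here reflects the scatter among these arrays.

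Follicular helper T cells enter B cell follicles and help B cells in germinal centres. BCL6, a zinc finger repressor, is the factor that their differentiation requires, and it and the repressor Blimp-1, encoded by Prdm1, oppose each other. TOX2 and TOX are HMG box proteins, MAF is a basic leucine zipper factor that promotes Il21 expression, ASCL2 is a basic helix-loop-helix factor that can induce Cxcr5, and Pou2af1 encodes OCA-B, a coactivator of the octamer-binding factors OCT1 and OCT2. CTLA-4 is an inhibitory receptor that limits costimulation through CD28.

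Promoter windows of Bcl6, Tox2 and Pou2af1 are shown first, because their brightest probe sets were called higher with the replicate block described further on (Tox2 and Pou2af1 also without it). RefSeq windows of 300 bases, 250 before and 50 after an annotated start site on GRCm38.p6, were found for 4 of the 6 genes (Bcl6, Tox2, Pou2af1 and Ascl2), with 9 windows in all. Both windows are printed for Bcl6, the first of 5 for Tox2 and the only one for Pou2af1. Capitals mark matches to TTCNNNGAA, a site shared by BCL6 and STAT proteins that reads the same on both strands.
Bcl6, chr16:23988803-23989102, minus strand: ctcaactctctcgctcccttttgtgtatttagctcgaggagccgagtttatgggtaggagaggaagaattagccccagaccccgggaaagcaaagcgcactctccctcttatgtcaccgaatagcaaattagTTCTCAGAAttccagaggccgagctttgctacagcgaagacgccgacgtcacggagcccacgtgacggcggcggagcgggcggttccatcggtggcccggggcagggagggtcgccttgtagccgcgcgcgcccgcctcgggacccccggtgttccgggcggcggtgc
Bcl6, chr16:23981234-23981533, minus strand: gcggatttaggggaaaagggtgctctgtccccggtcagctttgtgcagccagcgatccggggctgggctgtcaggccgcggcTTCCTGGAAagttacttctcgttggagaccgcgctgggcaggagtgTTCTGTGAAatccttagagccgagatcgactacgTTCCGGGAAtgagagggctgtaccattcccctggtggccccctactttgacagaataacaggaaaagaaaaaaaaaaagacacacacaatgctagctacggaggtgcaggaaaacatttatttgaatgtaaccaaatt
Tox2, chr2:163202877-163203176, plus strand: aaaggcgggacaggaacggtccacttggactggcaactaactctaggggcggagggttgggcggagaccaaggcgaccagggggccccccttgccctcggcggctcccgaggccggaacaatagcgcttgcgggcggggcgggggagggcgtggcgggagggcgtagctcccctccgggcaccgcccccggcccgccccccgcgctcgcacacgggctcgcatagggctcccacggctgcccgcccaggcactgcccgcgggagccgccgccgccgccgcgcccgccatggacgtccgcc
Pou2af1, chr9:51213440-51213739, plus strand: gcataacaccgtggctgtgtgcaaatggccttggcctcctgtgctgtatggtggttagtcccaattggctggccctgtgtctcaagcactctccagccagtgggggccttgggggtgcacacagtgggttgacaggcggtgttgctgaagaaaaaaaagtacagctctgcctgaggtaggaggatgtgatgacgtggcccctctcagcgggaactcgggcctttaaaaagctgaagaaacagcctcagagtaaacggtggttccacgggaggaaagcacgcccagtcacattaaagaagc
The upstream Bcl6 window holds 1 match, ttctcagaa, whose first base lies 118 bases before the start site. The second Bcl6 window holds 3 matches, ttcctggaa, ttctgtgaa and ttccgggaa, which do not overlap and whose first bases lie 168, 122 and 88 bases before its start site. At least 1 match was found in 8.29% of all 32817 windows of this length, and 3 or more in 11 of them, or 0.0335%. The cut of 3 equals the count in the second Bcl6 window, which stands out from 9 windows and several motifs searched. That share is therefore no test of enrichment. None of the 9 member windows matched the octamer ATGCAAAT (1.74% of all windows), the E box CAGCTG (16.3%), the Maf half-site TGCTGAC (4.67%) or the BATF and AP-1 site TGANTCA (7.81%), searched on both strands. A match is a run of letters and not a measured binding site.

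Among the regulators, Tox2 and Pou2af1 were higher in the knockout cells by 1.93-fold and 1.91-fold. Bcl6 and Maf had smaller positive differences that missed the threshold, although the brighter Bcl6 probe set and 3 of 5 Maf probe sets passed when arrays were compared within replicate pairs. Tox had a small negative difference, and Ascl2 fell below the floor for testing. Each RNA extract pools the sorted cells of an array. A different share of cells with a transcript, a different amount per cell and a shift in which cells passed the sort therefore cannot be told apart. By limma (linear models with moderated variances) with Benjamini-Hochberg adjustment over 27022 probe sets, 2 of the 5 tested genes rose and none fell at an adjusted p of 0.05. Among all 11988 tested genes 1.23% rose and 0.517% fell. At an unadjusted p under 0.05 the count was 7 of the 13 tested probe sets, against 15.6% of all.

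**Figure D1:**
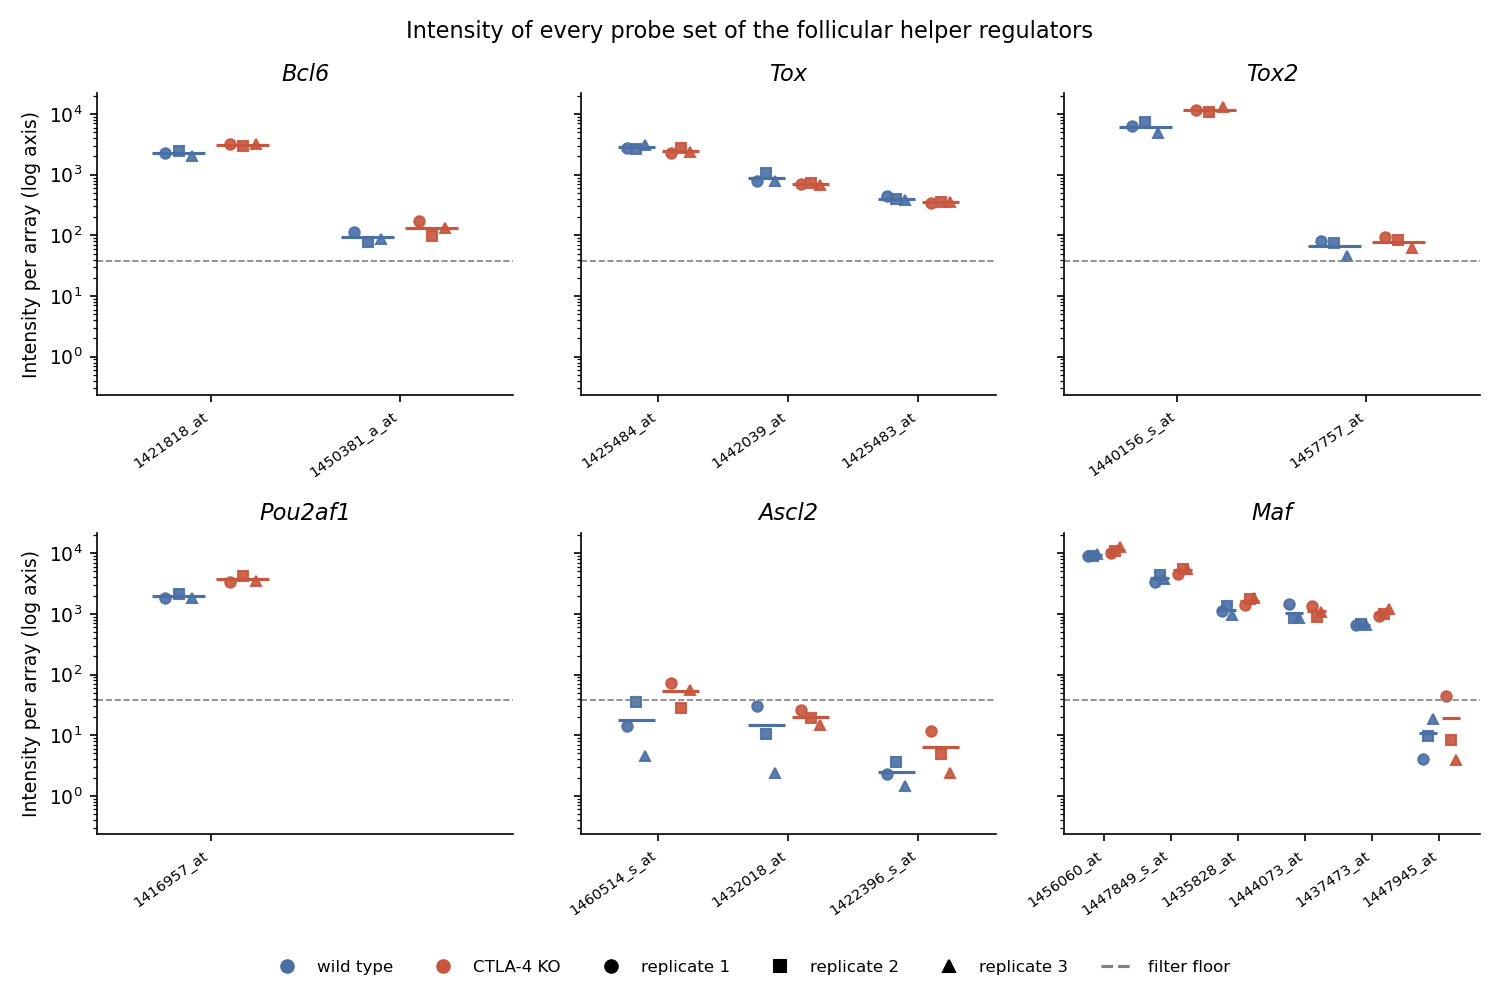
Intensity (log axis) of each of the 17 probe sets on each array, with wild type in blue, CTLA-4 KO in red, 1 symbol per replicate number and a bar at each group mean. The dashed line is the floor of 37.8. Probe sets differ in brightness for technical reasons, so colours are to be compared only within a probe set. Those of Tox2 (1440156_s_at) and Pou2af1 show the clearest gap between colours, and all Ascl2 means but 1 lie below the floor.

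Bcl6 was read by a bright probe set, 1421818_at, with intensities of 2295, 2425 and 2058 in wild type replicates 1, 2 and 3 and 3158, 2962 and 3248 in the knockout replicates. Every knockout array lay above every wild type array, and the level in the knockout was 138% of that in wild type. The log2 difference, knockout minus wild type, was 0.47 ± 0.10 (SE, 95% interval 0.24 to 0.70), which missed the threshold (limma adjusted p = 0.0608). With replicate number as a block it passed (limma adjusted p = 0.0117), where 8.65% of all tested probe sets were called. The second Bcl6 probe set, 1450381_a_at, was much dimmer, with 93.8 ± 18.8 in wild type and 134 ± 37.4 in the knockout (means ± SD over 3 arrays). Its groups overlapped, and its difference of 0.43 ± 0.25 had an interval of −0.11 to 0.98. Both probe sets were higher in the knockout in each of the 3 pairs.

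Tox2 and Tox, the HMG box paralogs, had differences of opposite sign. Tox2 probe set 1440156_s_at had 6303, 7277 and 4844 in wild type and 11478, 11009 and 12993 in the knockout, with a gap between the groups. The log2 difference was 0.96 ± 0.14 (limma adjusted p = 0.0126), and in pairs 1, 2 and 3 it was 0.86, 0.60 and 1.42. Pair 2 had the smallest of the 3 differences. Its arrays were also the ones with high Xist, at 14608 in wild type and 12599 in the knockout, against at most 107 on the other arrays. For Pou2af1 the difference was largest in pair 2 (0.96), and a link with Xist was not tested. Leaving out knockout replicate 2 gave a Tox2 difference of 1.01 that no longer passed (limma adjusted p = 0.0524). Without both arrays of pair 2 the Tox2 difference was 1.14 and passed (limma adjusted p = 0.0382). The other Tox2 probe set, 1457757_at, was dim at 67.8 ± 18.6 and 79.1 ± 15.7, and its groups overlapped. Its interval of −0.39 to 0.78 does not reach the estimate of the bright one. The log2 scale used understates changes of dim probe sets, but in plain intensity too this probe set's knockout level was only 117% of wild type. The suffix _s_at marks probes that may match more than 1 transcript, so the bright value rests on a probe set of that kind.

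Tox, which is tied to long-lasting receptor stimulation as well as to the follicular helper programme, was read by 3 probe sets past the floor. The brightest, 1425484_at, had 2722, 2652 and 3117 in wild type and 2280, 2723 and 2340 in the knockout, and the groups overlapped. Probe set 1442039_at had 800, 1055 and 792 against 717, 733 and 684, with all knockout arrays lower. Probe set 1425483_at had 438, 392 and 379 against 340, 357 and 351, also without overlap. Their log2 differences were −0.21, −0.29 and −0.20, with 95% intervals of −0.46 to 0.04, −0.61 to 0.02 and −0.51 to 0.12. None passed the threshold (limma adjusted p from 0.358 to 0.551), with or without the block. A fall of Tox by more than 0.61 therefore lies outside all 3 intervals, and so does a rise like that of Tox2. The log2 ratio of the brightest Tox2 to the brightest Tox probe set within an array was 1.21, 1.45 and 0.63 for the wild type replicates and 2.32, 2.01 and 2.46 for those of the knockout. It was higher on all knockout arrays, by 1.17, for which a two-sided exact permutation test returned p = 0.1, the smallest that 20 arrangements allow. This ratio and that of Bcl6 to Prdm1 were chosen after the values were seen, and the adjusted exact p over the 2 of them was 0.2 for each.

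Pou2af1, read by the single probe set 1416957_at, had 1846, 2165 and 1806 in wild type and 3403, 4236 and 3446 in the knockout. The groups were far apart relative to their spread, and the pair differences were close together at 0.88, 0.96 and 0.93. The log2 difference was 0.92 ± 0.12 (95% interval 0.65 to 1.19, limma adjusted p = 0.00971). Without knockout replicate 2 it was 0.82 (limma adjusted p = 0.0524), without both arrays of pair 2 it was 0.90 (0.0552), and with the Actb 5' to 3' signal ratio of each array as a term it was 0.88 (limma adjusted p = 0.164). That ratio reflects RNA integrity. Wild type arrays had ratios of 0.418, 0.410 and 0.584, and knockout arrays had 0.567, 0.691 and 0.544. The partners through which OCA-B acts were represented by Pou2f2, which encodes OCT2, with 280 ± 61.6 and 252 ± 57.4 (difference −0.14 ± 0.21, limma adjusted p = 0.788). Pou2f1 was not analysed here.

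Pou2af1 is best known from B cells, so B cell markers were set beside it. Of 14 listed markers 13 were on the array, 6 passed the floor and 1 rose, the sialic acid receptor gene Cd22 (214 ± 42.5 to 887 ± 179, limma adjusted p = 0.00191). None fell. The summed intensity of the 13 was 614 to 1083 in wild type and 977 to 1631 in the knockout. Without Cd22, the marker that rose, the sum was 436 to 822 in wild type and 282 to 581 in the knockout. Whether B cells contributed to the Pou2af1 signal was not tested. Of genes that define B cells, Cd79a and Pax5 lay below the floor as means over the 6 arrays. They had 13.1 ± 11.1 and 46.6 ± 2.11 in wild type and 6.77 ± 5.85 and 20.4 ± 16.6 in the knockout. Besides Cd22, the markers past the floor had means above it in both genotypes. Cd79b had 110 ± 8.79 in wild type and 91.5 ± 15.6 in the knockout, and Ms4a1 had 64.3 ± 41.0 and 53.3 ± 22.1. Cd72 had 112 ± 14.4 and 82.1 ± 10.6, Blk 55.8 ± 22.1 and 57.9 ± 12.7, and Vpreb3 51.8 ± 30.3 and 37.9 ± 27.7.

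Maf was read by 5 probe sets past the floor, and 4 of them had all knockout arrays above all wild type arrays. Over all 13 tested member probe sets, 7 had such a gap upward and 2 downward, against 9.46% and 11.5% of all tested probe sets, or 21% in either direction. By the brightest probe set of each gene, Tox2, Pou2af1, Bcl6 and Maf had a gap, against 22.7% of all tested genes. The probe sets of a gene share its RNA and are not replicates. The brightest, 1456060_at, had 8863, 9150 and 9569 in wild type and 10134, 10820 and 12651 in the knockout, a log2 difference of 0.28 ± 0.10 (95% interval 0.06 to 0.49, limma adjusted p = 0.203, against 0.0659 with the block). Probe set 1437473_at had 651, 684 and 665 against 918, 1005 and 1193, with a difference of 0.62 ± 0.13 (limma adjusted p = 0.0546, against 0.00590 with the block). It also passed after median centring (limma adjusted p = 0.0395) and with array weights (0.0386). Probe set 1447849_s_at had 3410, 4445 and 3770 against 4631, 5584 and 5481, and 1435828_at had 1123, 1367 and 954 against 1409, 1747 and 1826. The differences of these latter probe sets were 0.44 and 0.53, and of the settings tried both passed with the block alone (limma adjusted p = 0.00988 and 0.0194). Probe set 1444073_at was the exception, with overlapping groups at 1051 ± 331 and 1104 ± 244 and a difference of 0.09 ± 0.22 that turned negative when wild type replicate 2 or 3 or knockout replicate 1 was left out. The sixth, 1447945_at, stayed near background at 10.9 ± 7.42 and 19.1 ± 22.6.

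All 3 Ascl2 probe sets averaged below the floor over the 6 arrays. Its brightest probe set, 1460514_s_at, had 14.2, 34.9 and 4.51 in wild type and 73.5, 27.6 and 56.3 in the knockout, with means of 17.9 and 52.5. The groups overlapped, since knockout replicate 2 lay below wild type replicate 2. In a fit without the floor its difference was 1.05 ± 0.41 (limma adjusted p = 0.365), with pair values of 1.57, −0.22 and 1.82. The other probe sets averaged 14.5 ± 14.5 and 19.9 ± 5.65 for 1432018_at, and 2.48 ± 1.13 and 6.27 ± 4.82 for 1422396_s_at. No difference in Ascl2 was detectable at these intensities.

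**Figure D2:**
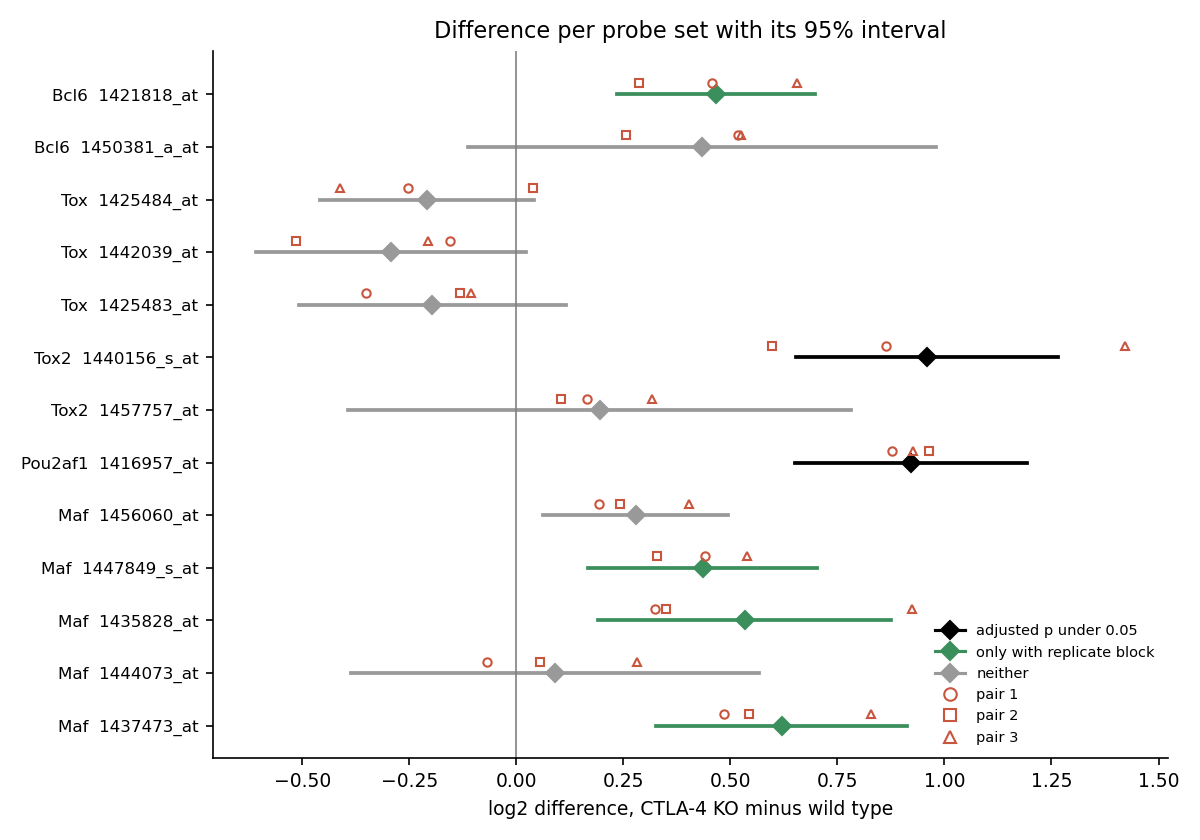
Log2 difference (CTLA-4 KO minus wild type, diamonds) with its 95% interval for the 13 tested probe sets, and the 3 differences within replicate pairs (open symbols). Black marks the calls of Tox2 and Pou2af1 at an adjusted p under 0.05, green the 4 probe sets of Bcl6 and Maf called only with the replicate block, and grey the rest. All 3 Tox diamonds lie left of 0.

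Ordered by the difference of the brightest probe set, the regulators ran from Tox2 (0.96) through Pou2af1 (0.92), Bcl6 (0.47) and Maf (0.28) to Tox (−0.21). The intervals of neighbours in this order overlapped for Tox2 and Pou2af1, for Pou2af1 and Bcl6, and for Bcl6 and Maf, while that of Maf (0.06 to 0.49) and that of Tox (−0.46 to 0.04) did not. With the block, 6 of the 13 tested probe sets were higher and none lower, against 3.85% and 4.8% of all tested probe sets. By gene, the call of Bcl6 brought the count to 3 of 5, against 8.91% of all tested genes, 5.46% higher and 3.45% lower.

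The genes whose values ran most like those of each regulator over the 6 arrays were found by the root mean square difference between log2 values centred on each gene's mean. Closest to Tox2 was Irf8 (0.06), an interferon regulatory factor gene, which rose from 1107 ± 262 to 2197 ± 106 (limma adjusted p = 0.0194), then Zfp365 and Rbms3 (both 0.09). Closest to Pou2af1 were Sh3bgrl2 (0.08), Acsl3 (0.08), a gene of fatty acid activation that rose from 171 ± 10.7 to 368 ± 62.8 (limma adjusted p = 0.0213), and Tmem107 (0.10). Closest to Bcl6 were Nfkbid (0.03), which encodes a nuclear IkB protein and rose from 5790 ± 417 to 8069 ± 233 (limma adjusted p = 0.0337), the kinase gene Map4k1 (0.04) and Mtfp1 (0.04). Maf ran closest to Dck (0.03), Ran (0.03) and Utp4 (0.03), and Tox to Ttbk1 (0.02), Rb1cc1 (0.04) and Ddx42 (0.04). A small value means like size and like order of the arrays and nothing more. Neighbours were picked for like values, so a rise like that of the regulator, with its adjusted p, follows from that choice and adds no support.

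Other genes of the follicular helper programme were taken from 5 lists with 61 genes, of which 52 had a probe set analysed here and 49 passed the floor. The lists too were chosen with earlier results of these data known. By the same limma test 3 rose and 2 fell, against 1.23% and 0.517% of all tested genes. Their median log2 difference was 0.08, against 0.00 for all tested genes. With the block 10 were higher and 9 lower, against 5.46% and 3.45% of all. All of these calls are counted for the brightest probe set of a gene.

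Of 15 surface and cytokine genes 2 rose and none fell, with a median of 0.39. Cxcr5 encodes the chemokine receptor for homing to follicles. It had 2919, 4213 and 3350 in wild type and 6623, 7038 and 9022 in the knockout, a log2 difference of 1.11 ± 0.15 (limma adjusted p = 0.0105). Il21, the cytokine through which these cells act on B cells, had 2657, 2053 and 1959 against 3760, 3909 and 3933 (0.81 ± 0.12, limma adjusted p = 0.0156). Both had clear gaps between the genotypes. The Il21 call was lost without wild type replicate 2 or 3 or knockout replicate 2 (limma adjusted p = 0.0540, 0.0583 and 0.0904), and neither call held with the Actb ratio as a term (limma adjusted p = 0.104 for Cxcr5 and 0.144 for Il21), nor did those of Batf, Id2 and Il7r described next (from 0.0978 to 0.370). Under that term the difference was 1.23 for Cxcr5, 0.91 for Il21, −1.29 for Id2 and −1.30 for Il7r, each larger in size than without it, and 0.49 for Batf, which was smaller. Cd200, a ligand that restrains myeloid cells, had 6104 ± 215 and 4418 ± 464, lower in the knockout in all pairs (−0.47 ± 0.10, limma adjusted p = 0.0548, against 0.00854 with the block). With the block Pdcd1, Sh2d1a and P2rx7 were higher too, and Slamf6 and Tnfsf8 lower.

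Of 11 inducers past the floor 1 rose and none fell, with a median of 0.08. Batf, an AP-1 family factor needed for Bcl6 and Maf expression, had 1195, 1194 and 1502 in wild type and 1941, 2060 and 2099 in the knockout (0.65 ± 0.12, limma adjusted p = 0.0354). Every knockout array was above the wild type arrays, yet the call held in only 1 of the 6 fits that each left out 1 array. The adjusted p in the other 5 was 0.0829 and 0.0912 without wild type replicates 1 and 2, and 0.0637, 0.169 and 0.114 without knockout replicates 1, 2 and 3. Notch1 (−0.35 ± 0.09) and Il6st, the shared receptor subunit gp130 (−0.38 ± 0.11), had negative differences that passed only with the block (limma adjusted p = 0.0232 and 0.0369).

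Of 10 opponents 1 fell and none rose, with a median of 0.18. Id2, an inhibitor of E proteins, had 4301, 6728 and 6438 in wild type and 2765, 3178 and 2342 in the knockout, which did not overlap (−1.06 ± 0.17, limma adjusted p = 0.0194). The Id2 call was lost without wild type replicates 2 and 3 (limma adjusted p = 0.0621 and 0.0825) and without knockout replicates 2 and 3 (0.0524 and 0.0602), with differences of −0.94, −0.97, −1.16 and −0.94 in that order. Prdm1, which opposes Bcl6, was dim, with 50.9, 45.6 and 58.1 against 80.5, 118 and 138. It was higher on all knockout arrays (0.90 ± 0.25, limma adjusted p = 0.116, against 0.0387 with the block), so its difference had the same sign as that of Bcl6. Klf2, a factor that maintains the egress receptor S1pr1, was the other opponent higher with the block (0.40 ± 0.16, limma adjusted p = 0.0386 with it and 0.272 without), although its genotypes overlapped. The log2 ratio of Bcl6 to Prdm1 within an array was 5.08 ± 0.25 in wild type and 4.64 ± 0.35 in the knockout (SD, n = 3 arrays, two-sided exact permutation p = 0.2). Foxp1, a brake on follicular helper differentiation, had 5851 ± 861 and 4320 ± 342 (−0.43 ± 0.12, limma adjusted p = 0.112, against 0.0228 with the block).

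Of 5 genes in the list of T zone and egress receptors 1 fell and none rose, with a median of 0.06. The gene that fell was Il7r, a cytokine receptor rather than a homing or egress receptor. No other gene of the list was called by its brightest probe set. Il7r, the interleukin-7 receptor, had 2179, 2725 and 4055 in wild type and 1520, 1352 and 1424 in the knockout (−1.01 ± 0.19, limma adjusted p = 0.0356). The knockout arrays were tightly grouped and all lower. The Il7r call held in 1 of 6 fits that left out an array. The adjusted p in the others was 0.0811 and 0.0572 without wild type replicates 2 and 3, and 0.0598, 0.157 and 0.0971 without knockout replicates 1, 2 and 3. Ccr7, which holds cells in the T zone, had 3929 ± 285 and 2915 ± 602 (−0.45 ± 0.14, limma adjusted p = 0.169, against 0.0189 with the block). Gpr183, the oxysterol receptor EBI2, ran the other way with 3971 ± 838 and 6197 ± 479 (0.66 ± 0.14, limma adjusted p = 0.0531, against 0.00294 with the block). The second Gpr183 probe set, 1457691_at, was called higher without the block (1.02 ± 0.14, limma adjusted p = 0.0106).

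Of the 8 partners and paralogs past the floor none was called, and their median was 0.03. The small Maf protein gene Mafg had 508, 358 and 356 against 799, 685 and 653, with no overlap (0.80 ± 0.17, limma adjusted p = 0.0536, against 0.00217 with the block). Its relative Mafk had 588 ± 31.1 and 641 ± 55.9 (0.12 ± 0.13, limma adjusted p = 0.713). Tox4 had 2510 ± 233 and 2169 ± 53.3 (−0.21 ± 0.11, limma adjusted p = 0.390). At an unadjusted p under 0.05 Mafg was the only one of the 8, against 16.5% of all tested genes.

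**Figure D3:**
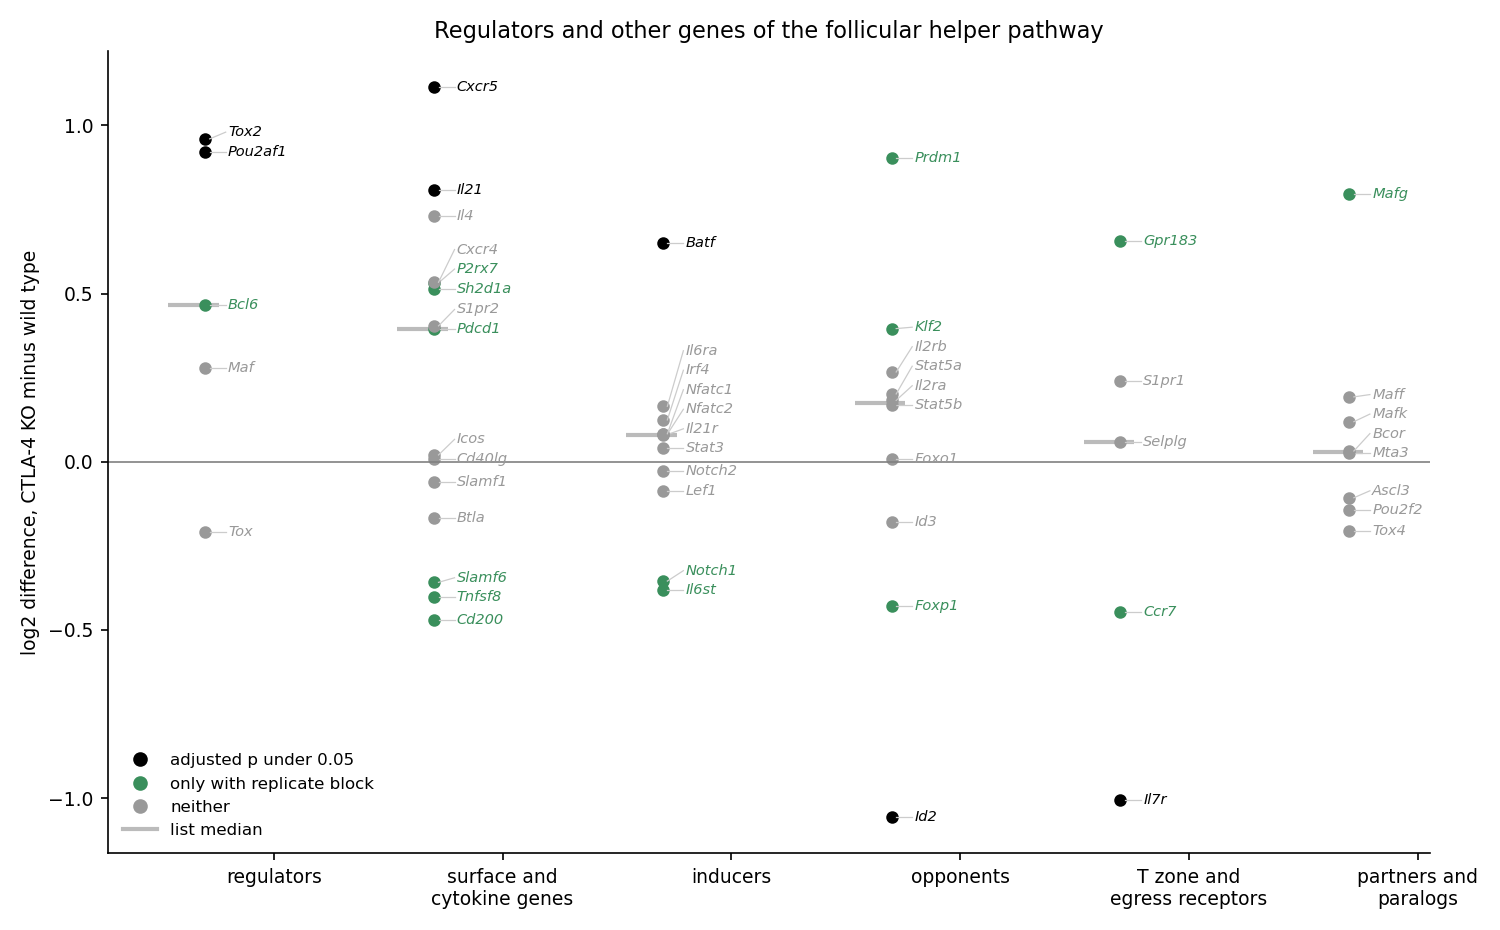
Log2 difference (CTLA-4 KO minus wild type) of the brightest probe set of each tested gene, by list, with grey bars at list medians. Black marks an adjusted p under 0.05, green a call only with the replicate block, and grey neither. Tox2 and Pou2af1 lie at 0.96 and 0.92 beside Cxcr5 at 1.11, and Id2 and Il7r are the 2 black points below 0.

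For the series as a whole, the targeted gene Ctla4 fell from 4902 ± 385 to 795 ± 14.4 (−2.60 ± 0.10, limma adjusted p = 1.52e-06), and T cell markers summed to 61494 to 66966 in wild type and 61680 to 61909 in the knockout. The defining marker Cd4 had 5148 ± 241 and 5473 ± 461. Myeloid markers summed to 549 to 620 and 378 to 612, with 6 of 12 past the floor and none called. The CD8 genes Cd8a and Cd8b1 summed to 262 to 422 and 315 to 513, and neither was called. In all, 345 of 27022 probe sets (1.28%) were called, 217 higher and 128 lower, and 244 and 54 after median centring of the arrays. Array medians ran from 62.1 to 75.2, and precision is limited by having 3 arrays per genotype.

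**Figure D4:**
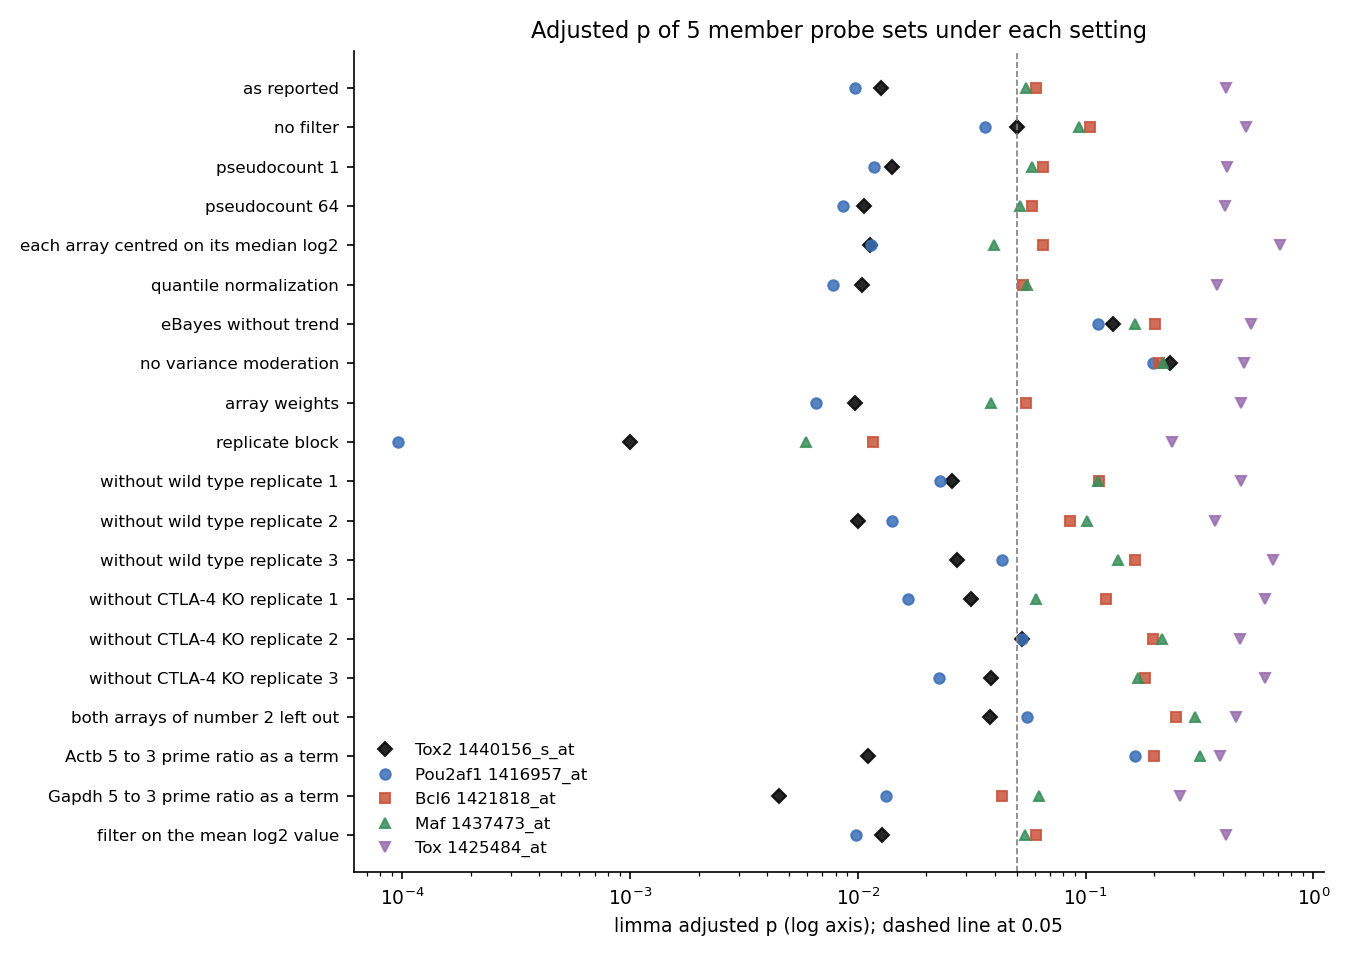
Limma adjusted p (log axis) of 5 member probe sets under the reported setting and each alternative, with a dashed line at 0.05. The brightest probe set is shown for each gene but Maf, for which it is the one with the smallest p, 1437473_at. The brightest Maf probe set, 1456060_at, is not shown and had a limma adjusted p of 0.203 in the reported setting. It was called in 0 of 19 alternatives, against 3 for 1437473_at. Tox2 and Pou2af1 lie right of the line without an intensity trend, without variance moderation and without CTLA-4 KO replicate 2, where both have 0.0524, and Pou2af1 also with the Actb term and without pair 2. Bcl6 lies left of it with the replicate block (0.0117) and with the Gapdh ratio as a term (0.0429).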

How the data were processed

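Expression was measured on 1-colour Affymetrix arrays in 3 wild type and 3 CTLA-4 KO samples, labelled from 2 µg of total RNA per the labels' protocols. The authors deposited 1 linear intensity per probe set and array, and the submitters' processing notes name MAS5 and Partek without versions. Each array had a 2% trimmed mean intensity of 500.003, so background correction, summary and scaling were done before deposit. All 6 columns of values were used, and 64 control probe sets were left out.

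Values became log2(intensity + 16), which understates changes of dim genes. Probe sets whose mean intensity reached the 40th percentile, 37.8, were kept (27022). A linear model was fitted to each with limma 3.58.1 in R 4.3.3, with eBayes and an intensity trend and 4 residual degrees of freedom. P-values count both directions and were adjusted by the Benjamini-Hochberg method across the kept probe sets, and 0.05 was the threshold. The annotation gave 1 gene for 34945 probe sets, several for 932 and none for 9160. For 34741 of them the gene ID was found in RefSeq GRCm38.p6 and its symbol there was used, whether or not it differed. A gene was represented by its brightest probe set, which gave 11988 tested genes. The files name no build, so coordinates belong only to the RefSeq promoter windows.

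Same-numbered arrays of the genotypes deviated together from their group means (r = 0.37, 0.234 and 0.25 over probe sets), so the numbers in the titles were taken to pair the arrays. The titles do not state a pairing, and all calls with the block rest on this reading of the same data. The reported model has no block. The fit was also run on simulated data with known changes. Their noise was independent between arrays and drawn from the fit's own variances, so that run cannot test whether these assumptions hold here. The members, lists and tests were chosen with earlier results of these data known. Genes named are the members, Ctla4, marker genes, the 3 nearest in pattern to each member and, per list, those past the threshold and otherwise the 3 with the smallest p. Pdcd1, Sh2d1a, P2rx7, Tnfsf8, Klf2, Slamf6 and Pou2f2 are outside it and were picked with their values in view. Alternatives were the filter, pseudocount, normalization, moderation, array weights, the block, each array left out, pair 2 left out, and RNA integrity ratios as terms. A filter on mean log2 values was added after seeing the data.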

Additional observations from a re-analysis of the deposited data

How the results depend on the processing

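The count of 345 called probe sets became 111 with no filter, 21 without the intensity trend, 0 without variance moderation (limma, 3613 at an unadjusted p under 0.05), 533 with array weights, 2337 with the replicate block, 47 without pair 2 and 21 with the Actb ratio as a term. It was 221, 173 and 92 without wild type replicates 1, 2 and 3, and 197, 44 and 202 without knockout replicates 1, 2 and 3. The 2 called regulators became 0 without the trend and without moderation, and 1 without pair 2 (Tox2) and with the Actb term (Tox2). They became 3 with the block, where Bcl6 joined them, and with the Gapdh term, and lay between 0 and 2 when 1 array was left out, with 0 only without knockout replicate 2. The 5 called genes of the pathway lists became 2 with no filter, 9 after quantile normalization, 8 with array weights, 19 with the block, 1 without pair 2, and 0 without the trend, without moderation and with the Actb term. They lay between 1 and 5 when 1 array was left out, with 3 and 2 without wild type replicates 2 and 3 and 3, 1 and 2 without knockout replicates 1, 2 and 3. The fits without an array have fewer samples, and otherwise the cause was not tested.

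Over all 19 alternatives the difference of Tox2 (1440156_s_at) lay between 0.80 and 1.25 and was called in 16, that of Pou2af1 between 0.82 and 1.01 in 14, and that of Bcl6 (1421818_at) between 0.40 and 0.60 in 2. Tox2 with no filter passed by the narrowest margin (limma adjusted p = 0.04999983). Besides those of Bcl6 and Maf given above, the block changed no call among the member probe sets. Among the single probe sets followed, signs turned only for Maf 1444073_at and Tox2 1457757_at, both with overlapping genotypes. With 1 array left out, Maf 1444073_at ranged from −0.074 without knockout replicate 1 to 0.33, with −0.04 and −0.02 without wild type replicates 2 and 3. Tox2 1457757_at ranged from −0.0032 without wild type replicate 3 to 0.33. Dim probe sets, those of Ascl2 above all, limit what can be said of that gene.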

Other observations

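Genes of the pathway lists with several probe sets gave more values than the brightest alone, and these were looked at after the values were seen. Foxp1 was read by 7 further probe sets past the floor, all with negative differences, and 2 of them were called: 1438802_at fell from 2667 to 1486 (−0.83 ± 0.15, limma adjusted p = 0.0288) and 1435221_at from 4002 to 2596 (−0.62 ± 0.11, limma adjusted p = 0.0301). The second Gpr183 probe set, 1457691_at, rose from 1975 to 3984 (1.02 ± 0.14, limma adjusted p = 0.0106), while its brightest one missed the threshold at 0.0531. Counted by any probe set of a gene, 7 pathway genes were called in place of 5, 4 higher and 3 lower. The second Mafg probe set, 1434054_at, had 244 and 428 (0.78 ± 0.19, limma adjusted p = 0.0775, with pairing as a block 0.00525), close to the 0.80 of the first.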
